A study of Bos taurus with 18 samples.

Results

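The SR splicing factors examined here are SRSF1, SRSF2, SRSF3, SRSF4, SRSF5, SRSF6, SRSF7, SRSF9, SRSF10 and SRSF11. They were taken by name from a table of 30642 genes, where all 10 were found and all 10 passed the filter on low counts. They were read in MAC-T cells, an immortalised bovine mammary epithelial line, in 18 poly-A RNA libraries that form 6 groups of 3. All groups were cultured for 4 days with insulin at 5 µg/ml and hydrocortisone at 1 µg/ml. The undifferentiated cells were kept in this basal medium, either at 37 °C throughout (NHSUD) or with 1 h at 42 °C before collection (HSUD). The differentiated cells also received prolactin at 5 µg/ml and dexamethasone at 10 µg/ml in a lactogenic medium. They were unheated (NHSD), collected after 1 h at 42 °C (HSD), or returned to 37 °C for 2 h (D2R) or 6 h (D6R) after the heat. Each run used plate I for the unheated groups, plate II for the heated groups and plate III for the recovery groups, so plate cannot be told apart from heat or recovery. RNA from 2 technical replicates was pooled for each library, and the same replicate number in different groups marks libraries that varied together.

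SR proteins carry an RNA recognition motif, which binds exonic splicing enhancers, and a tail rich in arginine and serine (the RS domain), through which they recruit the spliceosome. Phosphorylation of the RS domain by the SRPK kinases in the cytoplasm and the CLK kinases in the nucleus sets where these proteins sit and whether they are active. Heat is known to cause dephosphorylation of SR proteins, above all of SRSF10, and a general arrest of splicing that is reversed during recovery. Many SR genes also limit their own messages by including a poison exon, which sends the transcript to nonsense-mediated decay. The counts here are per gene, so transcript forms were not told apart, and phosphorylation was not measured.

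Library totals ran from 40.9 M to 61.2 M counts, and each SR gene had between 2187 and 26837 counts in every library. Values per library are given as CPM, counts scaled to a common library total with TMM factors, a scaling that corrects for differences in composition. Fold changes come from edgeR's quasi-likelihood test over all 18 libraries, with p-values adjusted by Benjamini-Hochberg over the 15158 genes tested, and a gene counts as called below an adjusted p of 0.05. These p-values measure the spread between libraries of repeated runs. The heat label was checked with the chaperone gene HSPA1A, which rose by 4.36 ± 0.55 (SE, log2) and 4.09 ± 0.55, and with DNAJB1, a cochaperone gene, which rose by 3.94 ± 0.27 (SE, log2) with heat in undifferentiated and by 3.92 ± 0.27 in differentiated cells. The mammary epithelial marker list (8 of 8 genes tested) summed to between 14254 and 25439 CPM in every library. The lists for leukocytes, endothelium and adipocytes each stayed at or under 4.26 CPM, whereas the fibroblast list summed to between 428 and 820.3 CPM. Most of that sum was DCN, with group means of 526 to 617 CPM, and PDGFRA had group means of 6.80 to 10.1 CPM, while COL1A1 had at most 20 reads and COL1A2 at most 10 in a library. The 10 SR genes together held 0.213% ± 0.0214 of all counts in NHSUD (SD, n = 3) and 0.184% ± 0.0329 in D6R, with the other groups between these means. In such bulk libraries, fewer cells of a type and less RNA per cell cannot be told apart.

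**Figure D1:**
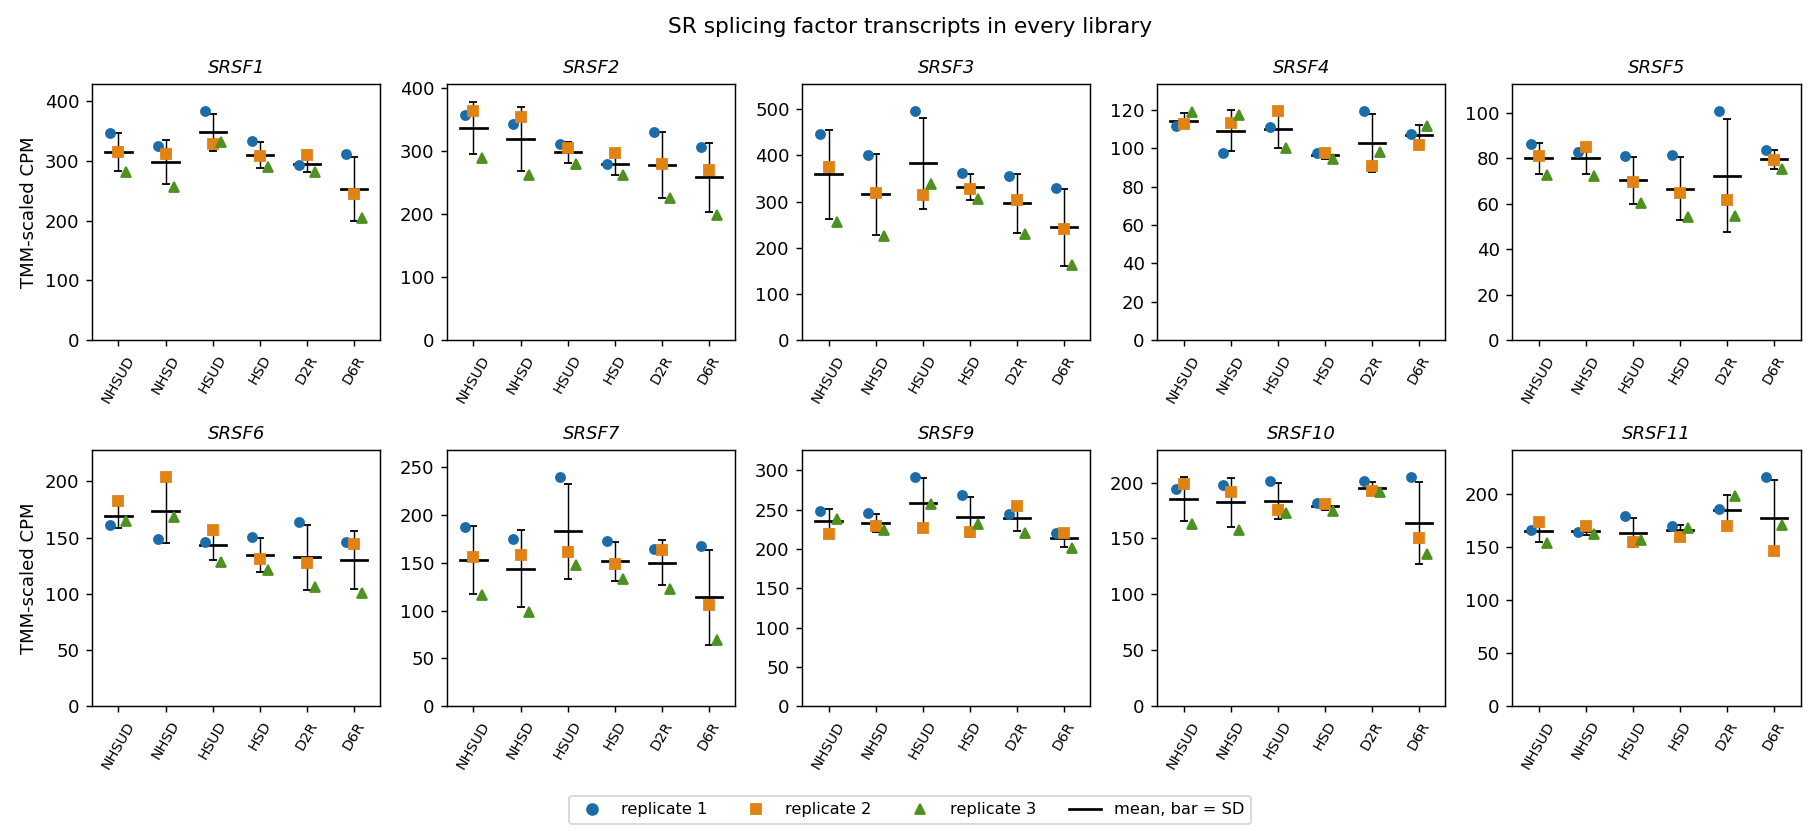
TMM-scaled CPM of the 10 SR genes in each of the 18 libraries, by group, with replicate numbers as symbols and black lines for the mean ± SD (n = 3). SRSF3 and SRSF7 span the widest ranges, from 162 to 496 CPM and from 69.0 to 239.7 CPM, and in every group both are highest in replicate 1.

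No SR gene passed the test for a change in message level with heat. In undifferentiated cells, 0 of the 10 were called between HSUD and NHSUD, where 0.125% of all genes tested were called. Their log2 fold changes lay between -0.24 (SRSF6) and 0.25 (SRSF7), with a median of -0.01 beside 0.01 over all genes, and 0 of the 10 had an unadjusted p under 0.05. In differentiated cells, 0 of the 10 were called between HSD and NHSD, against 0.099% of all genes, and the values lay between -0.37 (SRSF6) and 0.07 (SRSF7). Here 1 of the 10, SRSF6, had an unadjusted p under 0.05, as did 4.42% of all genes. DESeq2 called 0 SR genes in either medium. Treating the replicate number as a block in edgeR raised the calls to 0.633% of all genes in undifferentiated and 0.554% in differentiated cells, and still called 0 SR genes. With the block, 2 of the 10 had an unadjusted p under 0.05 in differentiated cells (SRSF5 and SRSF6), as did 12.1% of all genes.

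The fold changes were bounded by their 95% intervals. For heat in undifferentiated cells the intervals of the 10 genes reached from -0.60 to 0.86 (log2) without the block and from -0.51 to 0.53 with it. For heat in differentiated cells they reached from -0.73 to 0.67 without and from -0.64 to 0.39 with the block. A change of 2-fold in any of the 10 genes thus lay outside these intervals. In differentiated cells the SRSF6 interval was negative throughout, at -0.73 to -0.004 without and -0.64 to -0.11 with the block. So was that of SRSF5 with the block, at -0.53 to -0.04. These intervals are not adjusted for the number of genes. All other intervals held both signs, so changes as small as those estimates were not resolved at 3 libraries per group.

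SRSF10, the SR protein known to turn into a splicing repressor when dephosphorylated in heat, had some of the smallest fold changes with heat. It averaged 185.5 ± 19.4 CPM in NHSUD (SD, n = 3), 182 ± 22.0 in NHSD, 183 ± 15.8 in HSUD and 179 ± 3.69 in HSD. In D6R it spread more widely, at 164 ± 36.4 CPM. Its log2 fold change with heat was -0.02 ± 0.14 (SE) in undifferentiated cells (adjusted p of 0.999) and -0.03 ± 0.14 in differentiated cells (adjusted p of 0.998). SRSF11, an SR protein that binds the large U2AF subunit, was as flat, at 165 ± 3.82 CPM in NHSD and 166 ± 5.42 CPM in HSD. The 95% interval of its heat effect in differentiated cells ran from -0.26 to 0.27.

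SRSF6, which recognises exonic enhancers and promotes exon inclusion, had the lowest fold changes with heat in both media. It measured 161, 182 and 165 CPM in NHSUD (replicates 1, 2 and 3) and 146, 157 and 129 CPM in HSUD, so all heated libraries lay below all unheated ones. One of the 10 SR genes was separated downwards in this way, where 3.63% of all genes tested were. In differentiated cells SRSF6 measured 148, 204 and 168 CPM in NHSD and 151, 131 and 121 CPM in HSD. These groups overlapped, since replicate 1 was not lower after heat. SRSF6 then measured 164, 127 and 106 CPM in D2R and at 146, 144 and 101 CPM in D6R.

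For SRSF6 the log2 fold change against NHSD was -0.37 ± 0.17 (SE) at the end of heat, -0.39 ± 0.17 after 2 h and -0.41 ± 0.17 after 6 h of recovery, and these comparisons share the NHSD libraries. The adjusted p was 0.996, 0.999 and 0.767 (edgeR), and 0.26, 0.246 and 0.094 with the replicate block, so SRSF6 was not called in any of them. Within replicate 1 the log2 difference between D6R and NHSD was -0.02, against -0.50 within replicate 2 and -0.74 within replicate 3. Leaving out replicate 1 from the blocked fit gave calls for SRSF6 in all 3 comparisons (adjusted p of 0.0118, 0.00568 and 0.00797). That fit called 3.27%, 0.922% and 2.16% of all genes in these comparisons. The blocked fits without replicate 2 or without replicate 3 called no SR gene.

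SRSF5 and SRSF4 also had negative fold changes at the end of heat. SRSF5 measured 82.7, 84.9 and 72.0 CPM in NHSD and 81.3, 64.6 and 54.0 CPM in HSD. Replicates 2 and 3 were lower after heat and replicate 1 was nearly level, with log2 differences of -0.40, -0.42 and -0.03. The fitted change was -0.26 ± 0.19 (SE, adjusted p of 0.996, edgeR). SRSF4 averaged 109 ± 10.5 CPM in NHSD (SD, n = 3) and 96.4 ± 1.84 CPM in HSD, a difference of -0.18 ± 0.12 (SE, and 0.996 for its adjusted p). SRSF4 was lower in every HSD library than in every HSUD library, at 94.3 to 97.5 CPM against 99.9 to 119 CPM, and 2.22% of all genes tested were separated downwards between these groups.

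SRSF1, SRSF3, SRSF7 and SRSF9 had positive fold changes with heat in both media, and none was called. The signs were not the same in all replicate numbers. In differentiated cells SRSF7 was lower after heat in replicates 1 and 2, with log2 differences of -0.02, -0.09 and 0.44. SRSF3 differed by -0.15, 0.03 and 0.43 there, and by 0.15, -0.25 and 0.41 in undifferentiated cells. SRSF1 and SRSF9 were lower in replicate 2 alone in differentiated cells. In undifferentiated cells SRSF1, SRSF7 and SRSF9 were higher within each replicate number, as were 17.7% of all genes tested. SRSF1 is the prototype of the family, and SRSF9 resembles it. SRSF3 and SRSF7 are small SR proteins that also act as adaptors for messenger RNA export through NXF1. In undifferentiated cells the log2 fold changes were 0.15 ± 0.15 (SE) for SRSF1, 0.09 ± 0.27 for SRSF3, 0.25 ± 0.28 for SRSF7 and 0.13 ± 0.12 for SRSF9. Under scaling by library size alone without the replicate block, SRSF3 turned negative in undifferentiated cells, and all 4 genes did in differentiated cells. With the block, all 4 stayed positive in undifferentiated cells, while SRSF1 and SRSF9 turned negative in differentiated cells. The median of all genes was -0.09 in both media under that scaling, with or without the block. SRSF2, the nuclear speckle protein also known as SC35, had fold changes of -0.18 ± 0.17 and -0.19 ± 0.17 in undifferentiated and differentiated cells.

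**Figure D2:**
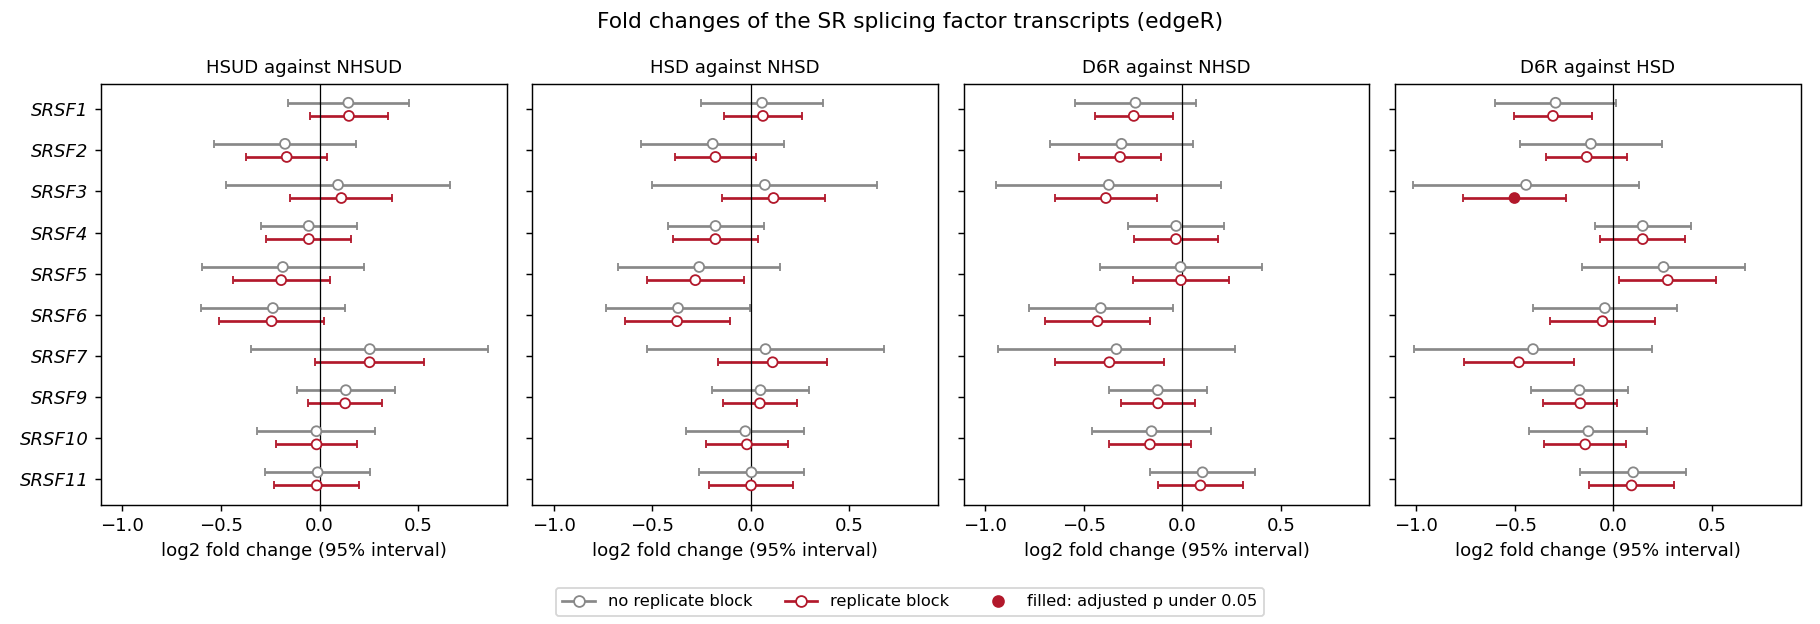
Log2 fold changes of the 10 SR genes with 95% intervals in 4 comparisons, without (grey) and with (red) the replicate block; filled points mark an adjusted p under 0.05. The single filled point is SRSF3 in D6R against HSD with the block, at -0.50.

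The heat effect did not differ detectably between the media for any SR gene. The interaction called 0 of 10 SR genes and 0% of all genes tested, with 0 SR genes at an unadjusted p under 0.05, and DESeq2 also called 0 SR genes. The differences between the heat effects lay between -0.18 (SRSF7) and 0.01 (SRSF11) on the log2 scale, and their 95% intervals reached from -1.03 to 0.78. The medium itself called 0 of 10 SR genes in unheated cells (0% of all genes) and 0 of 10 in heated cells (0% of all genes), with 0 SR genes at an unadjusted p under 0.05 in either and 0 called by DESeq2. The block still called 0 SR genes for the medium, beside 0.0066% of all genes in unheated and 0.0198% in heated cells. The fold change lowest in unheated cells was that of SRSF3 (-0.19 ± 0.27 SE), and that in heated cells was that of SRSF7 (-0.27 ± 0.28 SE).

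After 2 h of recovery the SR genes were again not called. Against NHSD, 0 of 10 were called beside 0.0792% of all genes, with SRSF6 at an unadjusted p under 0.05. Against HSD, 0 of 10 were called beside 0.0528% of all genes, with 0 SR genes at an unadjusted p under 0.05. DESeq2 called 0 SR genes in both, as did edgeR with the block, beside 0.224% of all genes against NHSD and 0.389% against HSD. The values against HSD lay between -0.16 (SRSF3) and 0.16 (SRSF11). SRSF10 averaged 195 ± 5.46 CPM in D2R (SD, n = 3), and its 3 libraries lay above the 3 HSD libraries (191.5 to 201 against 175 to 181 CPM), where 5.05% of all genes were separated upwards. The fitted difference was 0.13, with an adjusted p of 1 in edgeR.

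After 6 h of recovery the fold changes reached -0.41 (SRSF6) against NHSD and -0.44 (SRSF3) against HSD. The D6R mean was the lowest of the 6 groups for 7 of the SR genes, the others being SRSF4, SRSF5 and SRSF11. This order rests on TMM scaling, and the share of all genes lowest in D6R was not computed. Against NHSD, 9 of the 10 had a negative fold change, with a median of -0.20 beside 0.00 over all genes; with scaling by library size alone 7 of 10 were negative. None of the 10 was called, where 0.0132% of all genes were, and SRSF6 had an unadjusted p under 0.05. The replicate block called 0 of 10 beside 1.45% of all genes, and 5 reached an unadjusted p under 0.05 (SRSF1, SRSF2, SRSF3, SRSF6 and SRSF7), as did 15.8% of all genes. SRSF6 and SRSF9 were lower in every D6R library than in every NHSD library, 2 of 10 where 4.12% of all genes were separated downwards. DESeq2 called 0 of 10 without the block, and SRSF2 (adjusted p of 0.0462) and SRSF6 (0.0369) with it, beside 4.49% of all genes.

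Against the end of heat, SRSF3 showed the lowest fold change in D6R. It measured 362, 327 and 306 CPM in HSD and 329, 241 and 162 CPM in D6R (replicates 1, 2 and 3). The groups overlapped, but D6R was lower within each replicate number, by log2 differences of -0.14, -0.44 and -0.92. Of all genes tested, 21.2% were lower within each replicate number, as were 4 of the 10 SR genes. The fitted change was -0.44 ± 0.27 (SE, adjusted p of 0.675, edgeR) without the replicate block and -0.50 ± 0.12 (SE, adjusted p of 0.0356) with it. With the block, SRSF3 was 1 of 10 SR genes called, where 3.27% of all genes were called, and its 95% interval ran from -0.76 to -0.24. Without the block 0 of 10 were called beside 0.066% of all genes, with 0 SR genes at an unadjusted p under 0.05 and 0 called by DESeq2. With the block, 4 of 10 had an unadjusted p under 0.05 (SRSF1, SRSF3, SRSF5 and SRSF7), as did 22.5% of all genes. The SRSF3 estimate without the block depended on single libraries, at -0.22 without D6R replicate 3 and -0.72 without D6R replicate 1. The summed epithelial markers were also lower, at 14254 to 18823 CPM in D6R against 17555 to 22217 CPM in HSD, with a negative fold change for 8 of 8 without and 7 of 8 with the block; their part in the result was not tested. The blocked call was lost without replicate 2 (adjusted p of 0.136; 0.297% of all genes called), without replicate 3 (0.545; 0.106%) and with scaling by library size alone (0.0535).

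SRSF7 and SRSF1 followed SRSF3 in this comparison. SRSF7 measured 173, 149 and 133 CPM in HSD and 167.5, 106 and 69.0 CPM in D6R, with log2 differences of -0.04, -0.49 and -0.94 within the replicate numbers. The fitted change was -0.41 ± 0.28 (SE, adjusted p of 0.707, edgeR), and -0.48 ± 0.13 (adjusted p of 0.0521) with the replicate block. SRSF1 measured 333, 307 and 289 CPM in HSD and 311, 244 and 204 CPM in D6R, a change of -0.29 ± 0.15 (SE, adjusted p of 0.624), and of -0.31 ± 0.09 (0.0726) with the block. Both were called by DESeq2 with the block (0.0187 for SRSF7 and 0.0329 for SRSF1), a fit that called 8.23% of all genes.

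SRSF5 and SRSF4 lay on the other side at 6 h. SRSF5 measured 83.6, 79.4 and 75.3 CPM in D6R, against 81.3, 64.6 and 54.0 CPM in HSD. It was higher in D6R within each replicate number, by 0.04, 0.30 and 0.48, and the fitted change was 0.25 ± 0.20 (SE, adjusted p of 0.734, edgeR), with 0.28 ± 0.12 (adjusted p of 0.175) under the replicate block. SRSF4 was higher in every D6R library than in every HSD library, at 102 to 112 CPM against 94.3 to 97.5 CPM, where 7.36% of all genes were separated upwards. SRSF9 was the reverse, at 201 to 220.02 CPM in D6R against 221 to 269 CPM in HSD, where 6.62% of all genes were separated downwards. Neither SRSF4 (0.15 ± 0.12 SE, adjusted p of 0.735) nor SRSF9 (-0.17 ± 0.12 SE, 0.696) was called, with or without the block.

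Between 2 h and 6 h of recovery, 0 of 10 SR genes and 0% of all genes were called, with 0 SR genes at an unadjusted p under 0.05, and DESeq2 called 0 SR genes. SRSF9 was lower in every D6R than every D2R library, where 3.38% of all genes were. The lowest fold change was that of SRSF7, at -0.40 ± 0.28 (SE). The block also called 0 of 10, and 4 reached an unadjusted p under 0.05 (SRSF1, SRSF3, SRSF7 and SRSF10), as did 11.9% of all genes. Leaving replicate 1 out of the blocked fit gave 4 calls, beside 3.58% of all genes called in that fit, with SRSF7 at -0.72, SRSF10 at -0.42, SRSF1 at -0.40 and SRSF5 at 0.42. Replicate 1 differed from the others here: the log2 difference of SRSF7 was 0.02 within replicate 1, and -0.62 and -0.83 within replicates 2 and 3. Leaving out replicate 2 or 3 instead gave no call for an SR gene.

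**Figure D3:**
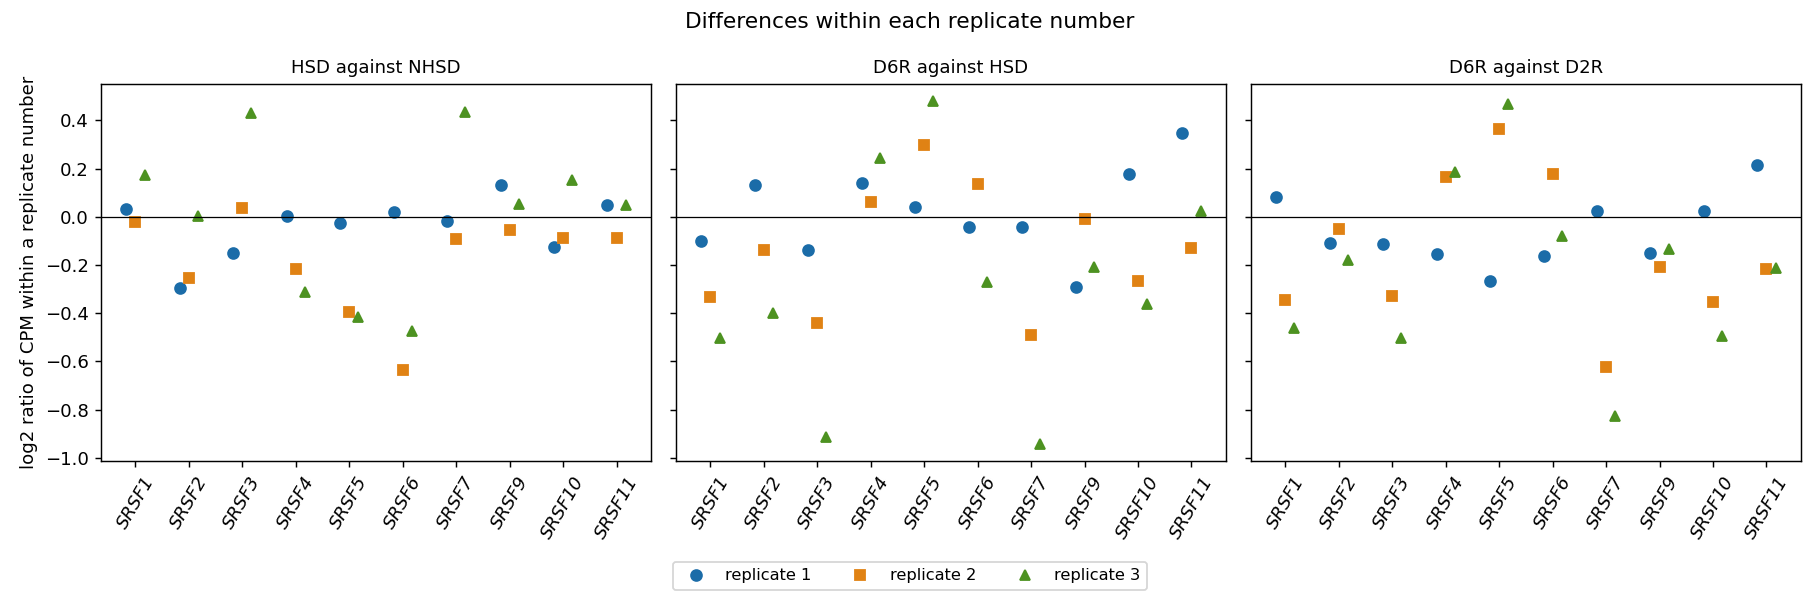
Log2 ratios of CPM within each replicate number for the 10 SR genes in HSD against NHSD, D6R against HSD, and D6R against D2R. In D6R against HSD, SRSF3 is at -0.14, -0.44 and -0.92, while SRSF5 is at 0.04, 0.30 and 0.48.

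The replicate number separated the libraries more than the treatment did for several SR genes. For SRSF7, 55.3% of the variance of log2 CPM lay between replicate numbers and 31.4% between groups, and for SRSF3 the shares were 54.4% and 33.6%. The median gene of the table had 34.9% between replicate numbers and 27.6% between groups. SRSF7 averaged 184 ± 28.2 CPM over the 6 libraries of replicate 1 (SD), 149 ± 21.7 in replicate 2 and 114 ± 27.7 in replicate 3, and replicate 1 was the highest library in 6 of 6 groups. SRSF2, SRSF5, SRSF7 and SRSF10 were lowest in replicate 3 in 6 of 6 groups. SRSF4 had 0.533% of its variance between replicate numbers, the smallest share of the 10, with means of 107, 106 and 107 CPM.

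For most of the 10 genes, group levels overlapped from one neighbour in the order of means to the next. The ratio of the highest to the lowest group mean was 1.60 for SRSF7 (HSUD over D6R), 1.57 for SRSF3 (HSUD over D6R), 1.37 for SRSF1 (HSUD over D6R) and 1.33 for SRSF6 (NHSD over D6R). It was 1.30 for SRSF2 and between 1.13 (SRSF11) and 1.21 (SRSF9) for the other genes. Neighbours in the order did not overlap in 2 places, between NHSUD and HSUD for SRSF6 and between NHSD and D6R for SRSF9. Of all genes tested, 3.63% had HSUD wholly below NHSUD and 4.12% had D6R wholly below NHSD. The order of means was not worked out for all genes, so the usual number of such places is not known.

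Several pairs of members ran together when their log2 CPM was followed across the 18 libraries, each centred on the mean of its replicate number. SRSF1 and SRSF7 had a Pearson correlation of 0.97 (Spearman 0.90), SRSF1 and SRSF3 of 0.91 (0.88), and SRSF3 and SRSF7 of 0.91 (0.79). Without the 2 libraries farthest from the median of the first gene these were 0.93, 0.83 and 0.82. Removing the group means as well left 0.95 for SRSF1 with SRSF7, 0.70 for SRSF1 with SRSF3 and 0.82 for SRSF3 with SRSF7. SRSF4 and SRSF5 had a correlation of 0.77 (Spearman 0.76), and 0.68 without the 2 farthest libraries. Equal values were seen for SRSF2 with SRSF6 (0.77, and 0.70 without the 2 farthest libraries) and for SRSF7 with SRSF10 (0.77, and 0.41). SRSF9 had correlations of 0.71 with SRSF7 and 0.70 with SRSF1, which fell to 0.25 and 0.23 with the group means removed. The same step left 0.78 for SRSF4 with SRSF5, 0.47 for SRSF2 with SRSF6 and 0.87 for SRSF7 with SRSF10. SRSF5 ran against SRSF7 (-0.55) and SRSF1 (-0.52). These points share libraries, scaling and depth, and they are given as a description over the 45 pairs of genes.

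**Figure D4:**
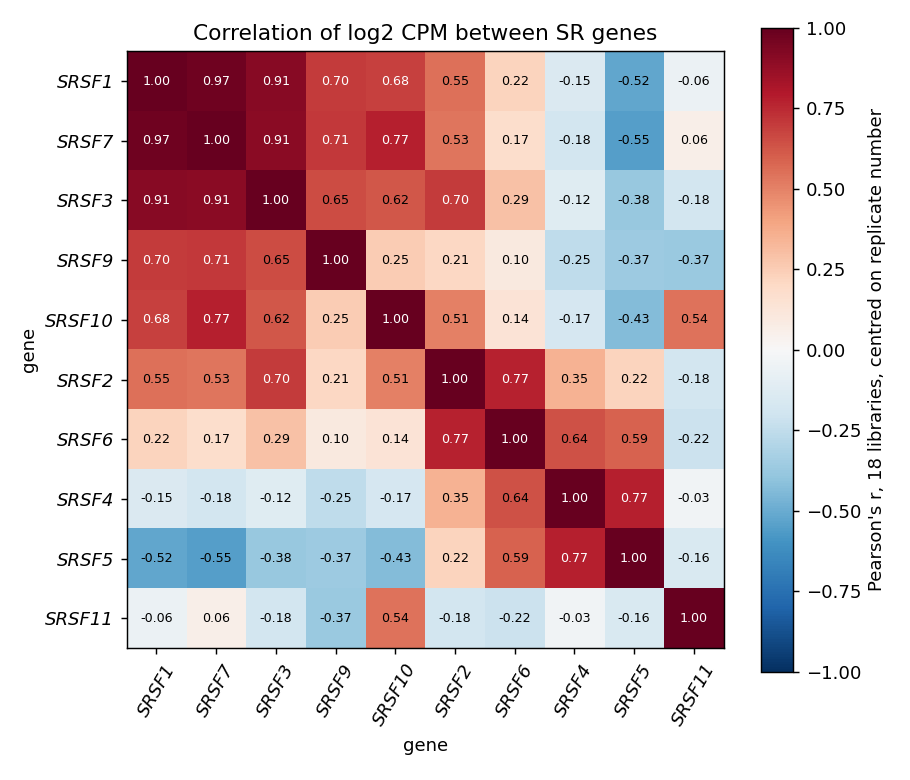
Pearson correlation of log2 CPM between the 10 SR genes over 18 libraries, centred on the replicate number. SRSF1, SRSF7 and SRSF3 correlate at 0.91 to 0.97, SRSF4 with SRSF5 at 0.77, and SRSF5 with SRSF7 at -0.55.

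Outside the family, the genes most like the mean of the 10 SR genes over the 18 libraries, centred in the same way, were KDM1A (r = 0.92), TUBB3 (0.92), HDAC1 (0.91), PTCD3 (0.91) and DALRD3 (0.90). KDM1A is a histone demethylase, HDAC1 a histone deacetylase and TUBB3 a beta-tubulin. Among the SR genes themselves the correlation with that mean ran from 0.86 (SRSF2) to -0.01 (SRSF5), so the mean mainly follows SRSF2, SRSF3, SRSF7 and SRSF1. The table also held SRSF12, a family member of low abundance, at 3.46 to 6.64 CPM, and it was not called in any comparison with or without the block.

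Among the related genes, the nuclear SR kinase genes CLK1 and CLK4 were called with heat. CLK1 measured 64.4, 67.6 and 67.2 CPM in NHSD and 131, 112 and 135.5 CPM in HSD, and CLK4 went from 18.01, 16.3 and 15.3 to 45.3, 33.6 and 36.5 CPM, with no overlap for either. The share of all genes separated upwards between these groups is not given here. In differentiated cells CLK1 rose by 0.93 ± 0.15 (SE, log2, adjusted p of 0.0146, edgeR) and CLK4 by 1.22 ± 0.17 (0.00417), and both were also called in undifferentiated cells (0.0103 and 0.00397). The CLK1 call in differentiated cells was lost when any compared library other than HSD replicate 2 was left out (adjusted p of up to 0.0946), and that in undifferentiated cells without any NHSUD library or HSUD replicate 1 (up to 0.0846). When only the 6 libraries compared were fitted, CLK1 was not called in undifferentiated (0.0744) or differentiated cells (0.0503), and CLK4 was not called in undifferentiated cells (0.0744). Of the 13 tested genes for SR kinases, phosphatases and transport, 2 were called higher and 0 lower with heat in each medium, beside 0.125% (undifferentiated) and 0.099% (differentiated) of all genes. Of the 13, 9 had a positive fold change in undifferentiated and 8 in differentiated cells. SRPK1, the cytoplasmic kinase, had a fold change of -0.01 ± 0.12 (SE) in each medium and was not called. CLK2 had fold changes of -0.17 ± 0.13 (SE) in undifferentiated and -0.15 ± 0.13 in differentiated cells, and CLK3 of 0.04 ± 0.11 and 0.15 ± 0.11, with no call for either.

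**Figure D5:**
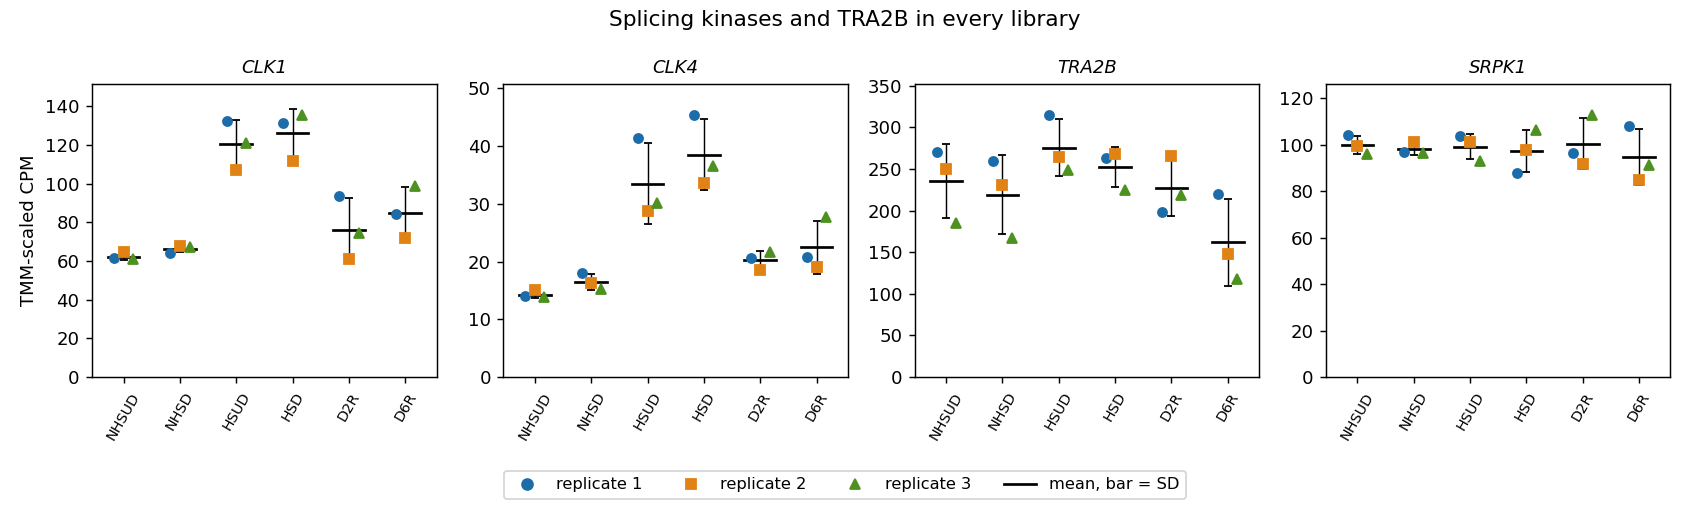
TMM-scaled CPM of CLK1, CLK4, TRA2B and SRPK1 in each of the 18 libraries, with mean ± SD (n = 3). All heated CLK1 libraries lie above all unheated ones, at 107 CPM or more against 67.6 CPM or less, while SRPK1 stays between 84.9 and 113 CPM.

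After 2 h of recovery CLK1 and CLK4 were lower than in HSD with the replicate block (-0.73 ± 0.11 SE, adjusted p of 0.00273, and -0.92 ± 0.14, 0.00235, edgeR) and were not called without it (0.134 and 0.0688). At 6 h against the end of heat, CLK1 and CLK4 fell with the replicate block (-0.57 ± 0.11 SE, adjusted p of 0.013, and -0.77 ± 0.14, 0.0077, edgeR) and were not called without it (0.284 and 0.149). TRA2B, an SR-like activator of exon inclusion, measured 263, 268 and 224 CPM in HSD and 219.8, 148 and 118 CPM in D6R, without overlap. Of all genes tested, 6.62% were separated downwards between these groups. TRA2B fell by 0.67 on the log2 scale with the block (SE 0.14, adjusted p of 0.019), while the fit without it gave -0.64 ± 0.21 (SE) and made no call (0.472). It was the 1 gene called among the 21 tested SR-related genes, where 3.27% of all genes were called. Of 25 hnRNP genes, whose products often oppose SR proteins at splice sites, 21 had negative fold changes at 6 h against HSD, with a median of -0.15 and 0 called with or without the block. All 15158 genes had a median of 0.01 in this comparison, and 7341 of them were negative. Of the 15 nonsense-mediated decay genes, 9 were positive there, with a median of 0.19 and 0 called with or without the block. With heat, 0 of 25 hnRNP, 0 of 21 SR-related and 0 of 15 decay genes were called in either medium, with or without the block.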

How the data were processed

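Counts per gene were deposited for 18 libraries as whole raw read counts, 1 column per library, and each column was matched to its sample by its label (0 columns were left over). Per the labels' protocols, trimming used fastp 0.23.2, and STAR 2.7.9a aligned the reads to ARS-UCD 1.3, a cattle genome. The submitters' processing notes also name featureCounts 2.0.3, DESeq2 and limma with no role. The settings for strand, multi-mapped reads and read pairs were not given in the sources used here. Of counts from 1 to 20, 72.7% were even, as happens when both mates of a pair are counted, which was not tested. Reads of SR genes with processed pseudogenes may be split to an unknown extent. No gene lengths or sequences were used, so levels are not compared between genes.

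Genes were filtered with edgeR 4.0.16 (filterByExpr, minimum count 10), leaving 15158 of 30642, then scaled by TMM, and all libraries entered a model of 6 group means (quasi-likelihood test, robust, two-sided; R 4.3.3). SEs come from the F statistic, and 95% intervals from the moderated degrees of freedom. With 3 libraries per group, a single-gene exact permutation test cannot go below p = 0.1. The fit was tested on simulated counts. The labels say that the whole experiment was repeated. Deviations from group means correlated positively in all 45 pairs of same-numbered libraries of different groups (0.135 to 0.596), so the replicate number pairs the libraries. Differently numbered pairs had a median of -0.20, which is not separate evidence, since deviations cancel within each group. Blocked values are printed where they change a call or count. No library duplicated another of its own group (smallest chi-square per gene 63.5). Libraries of different groups were not compared in this way.

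The 10 SR genes and all gene lists were chosen with earlier results of these data known. The text counts calls among all 10 SR genes in each comparison, but does not print every fold change. Also given are called genes of the related lists (at most 5 per list), HSPA1A and DNAJB1. The 5 genes most correlated with the mean of the SR genes are given too. SRSF12, SRPK1, CLK2 and CLK3, and the library values of SR genes other than SRSF3, were chosen for the text after their values were seen. The alternatives were DESeq2 1.42.0, other scalings and filters, fitting just the groups compared, the replicate block, a fold threshold, and leaving out libraries; both other scalings with the block, and all alternatives for CLK1, CLK4 and TRA2B, were added after the data were seen.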

Additional observations from a re-analysis of the deposited data

How the results depend on the processing

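For all 10 comparisons the count of SR genes called was 0, and it stayed at 0 in 197 of 206 alternatives, including every fit without the block that left out a library (0 to 0 calls), both other scalings, both other filters, fits restricted to the groups compared and DESeq2 without the block. The leave-out fits without the block called at most 0.161% of all genes, and DESeq2 without the block at most 0.614%. With so few calls anywhere, a count of 0 among 10 genes says little about the SR genes. The replicate block raised the count of SR genes called to 1 at 6 h against heated cells (SRSF3), also with DESeq2 size factors (1), and changed no other count of calls. DESeq2 with the replicate block gave 2 calls at 6 h against unheated cells (SRSF2 and SRSF6) and 3 at 6 h against heated cells (SRSF1, SRSF3 and SRSF7). Leaving replicate 1 out of the blocked fit gave 2 calls for heat in differentiated cells (SRSF5 and SRSF6), 1 for 2 h and 2 for 6 h of recovery against unheated cells, 4 for 6 h against heated cells and 4 for 6 h against 2 h; without replicate 2 or 3 it gave 0. Of all genes, up to 7.12% were called in the blocked fits without replicate 1 and up to 8.23% by DESeq2 with the block. The cause was not tested. Under library size alone, the median of all genes moved to 0.14 at 6 h against heated cells, where 5 of 10 SR genes were then negative in place of 7; the fold changes there are best read against that median. The SRSF3 estimate in that comparison stayed negative in all 19 alternatives (-0.72 to -0.22). The 9 results for CLK1, CLK4 and TRA2B kept their direction throughout.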
